A study of Mus musculus with 156 samples.

Results

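The genes described here are 10 regulators of DNA methylation, chosen by gene name: the methyltransferases Dnmt1, Dnmt3a and Dnmt3b, their cofactors Dnmt3l and Uhrf1, the dioxygenases Tet1, Tet2 and Tet3, and the Pramel6 and Pramel7 genes. All 10 were present among the 40914 genes of the expression tables, and all 10 passed the filter on low counts in both time courses. The samples were mouse embryonic stem cells (mESCs) of 4 lines, sequenced as poly(A) RNA, and the study asked how the long noncoding RNA Firre, which is transcribed from the X chromosome, affects transcription. The lines had the genotypes WT (WT control), Firre inducible transgene (WT transgene), Firre KO (KO control) and Firre KO / Firre inducible transgene (KO transgene). Every group except those of 0 min received doxycycline at 1 ng/µL, the controls included, so doxycycline and time in culture cannot be told apart within a control line. All cells grew on gelatin with serum, LIF, a MEK inhibitor (PD0325901) and a GSK3 inhibitor (CHIR99021). Of these, LIF and the inhibitors are known to hold mESCs in a naive state. The long course had 3 replicates per line at 0, 12, 24, 48 and 96 h (0, 720, 1440, 2880 and 5760 min). The short course had 2 replicates per line at 12 times from 0 to 330 min. The labels do not say whether replicates came from separate cultures or how many clones each line represents, so the p-values measure only the spread between these libraries. The promoter of the transgene is not given in the sources used here.

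DNA methylation in mammals is copied after replication by Dnmt1, which Uhrf1 brings to newly replicated DNA, and is set anew by Dnmt3a and Dnmt3b, with Dnmt3l as a cofactor that has no catalytic activity of its own. The Tet enzymes oxidise 5-methylcytosine and so start its removal. Naive mESCs in medium with both inhibitors are known for low DNA methylation, but the medium used here also held serum. PRAMEL7 is known to direct UHRF1 to a Cul2 ubiquitin ligase for degradation, and Pramel6 is a closely related family member expressed in the same cells. Only RNA was measured here, so neither protein nor DNA methylation is described.

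Promoter sequences are shown for 4 members, Pramel6, Pramel7, Dnmt3b and Tet2, as examples that differ widely in CpG content. RefSeq promoters were found for all 10 members (17 annotated starts), on build GRCm38.p6. Each line below gives the 250 bases upstream of the start, 5′ to 3′ on the gene's strand, with every CpG dinucleotide in capitals. Pramel6 lies at chr2:87506315-87506564 (plus strand), Pramel7 at chr2:87492419-87492668 (minus strand), Dnmt3b at chr2:153649199-153649448 (plus strand) and Tet2 at chr3:133544391-133544640 (minus strand).
Pramel6: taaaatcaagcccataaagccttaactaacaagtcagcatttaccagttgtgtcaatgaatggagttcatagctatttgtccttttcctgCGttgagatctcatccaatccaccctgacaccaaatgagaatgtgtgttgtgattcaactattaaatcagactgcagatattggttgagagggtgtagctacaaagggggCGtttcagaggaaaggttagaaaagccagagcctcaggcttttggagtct
Pramel7: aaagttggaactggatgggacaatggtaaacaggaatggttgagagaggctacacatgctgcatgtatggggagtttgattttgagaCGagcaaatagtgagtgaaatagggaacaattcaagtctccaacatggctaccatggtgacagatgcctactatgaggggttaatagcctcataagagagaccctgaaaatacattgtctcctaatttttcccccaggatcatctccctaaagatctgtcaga
Dnmt3b: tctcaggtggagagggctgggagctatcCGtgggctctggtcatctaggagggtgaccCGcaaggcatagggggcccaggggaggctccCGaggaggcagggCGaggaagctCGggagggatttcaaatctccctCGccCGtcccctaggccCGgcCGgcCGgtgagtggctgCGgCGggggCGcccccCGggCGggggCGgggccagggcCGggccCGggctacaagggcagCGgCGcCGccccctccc
Tet2: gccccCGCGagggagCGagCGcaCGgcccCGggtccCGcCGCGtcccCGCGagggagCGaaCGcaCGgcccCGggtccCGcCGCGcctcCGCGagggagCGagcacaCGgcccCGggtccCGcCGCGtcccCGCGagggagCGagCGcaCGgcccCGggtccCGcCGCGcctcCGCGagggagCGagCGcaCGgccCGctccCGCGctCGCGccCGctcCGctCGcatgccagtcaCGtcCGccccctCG

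The Pramel6 stretch held 2 CpGs and that of Pramel7 held 1, against 21 for Dnmt3b and 51 for Tet2. Over 32851 RefSeq promoters of the same length the median was 6 CpGs. Few CpGs were not particular to the Pramel genes. The Dnmt3l starts, not printed above, held 5, 4 and 3 CpGs, and those of Dnmt1 held 2, 7 and 26. The ratio of observed to expected CpGs was 0.18 for Pramel6 and 0.09 for Pramel7, at percentiles 26.1 and 12.8 of all promoters, 0.61 for Dnmt3b (percentile 66.4) and 1.19 for Tet2 (percentile 99.3). Both strands were searched for 5 motifs. The GC-box letters GGGCGG, present in 32.7% of all promoters, occurred 3 times upstream of Dnmt3b and once upstream of Tet2, and not in the windows of Pramel6 and Pramel7. The letters TTCNNNGAA (a STAT motif, 7.0% of all promoters), TTTGGCGC (E2F, 0.4%), CACGTG (an E-box, 6.0%) and TATAAA (12.4%) were in none of the 4 windows. Pramel6 and Pramel7 are neighbours on chromosome 2 with 9471 bases between their GENCODE M21 gene models on mm10. They are transcribed away from each other, Pramel6 at chr2:87506565-87510872 on the plus strand and Pramel7 at chr2:87489087-87497093 on the minus strand. The annotations differ for Pramel7: its RefSeq start, at position 87492418, lies inside the GENCODE gene model, so the window printed above is upstream of the RefSeq start only.

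The libraries held 18961799 to 47948630 expected counts in the long course and 19013652 to 37195019 in the short course. Firre checked the labels: its level was 0.235 to 1.07 TPM (a value scaled to transcript length and library total) in the long-course KO control and 21.3 to 31.3 TPM in the long-course WT control. With doxycycline it was 24.8 to 50.8 TPM in the long-course KO transgene line and 62.8 to 120.6 TPM in the WT transgene line, and up to 471 and 1240 TPM in the short course. Before doxycycline the WT transgene line already held 45.8 to 46.8 TPM in the long course, above every long-course WT control library. The labelled cell type had its markers: the 8 mESC marker genes summed to 7083 TPM or more in every library, whereas the 7 fibroblast or feeder markers summed to at most 4.98 TPM, and Postn and S100a4 were listed at 0 in 118 and 137 of the 156 libraries. In bulk RNA, fewer cells of a type and less RNA per cell cannot be told apart.

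The members spanned more than 2 orders of magnitude in level. In untreated WT control cells of the long course, Uhrf1 was at 220 ± 7.27 TPM (SD, n = 3), Dnmt3l at 166 ± 2.49, Tet1 at 88.8 ± 5.08, Dnmt1 at 63.8 ± 2.25, Tet2 at 51.6 ± 2.01, Dnmt3b at 41.4 ± 1.12 and Dnmt3a at 27.2 ± 0.591 TPM. Pramel7 was at 6.09 ± 0.18, Pramel6 at 2.37 ± 0.404 and Tet3 at 0.826 ± 0.057 TPM. The order was the same in the short course, and no member overlapped its neighbour in the order in either course. The low members rested on few reads: Pramel6 had 16 to 102 expected counts per long-course library, Pramel7 49 to 327 and Tet3 137 to 477, against 5968 to 16297 for Dnmt1. Pramel genes form a multigene family, so reads shared with relatives may have been divided between them.

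**Figure D1:**
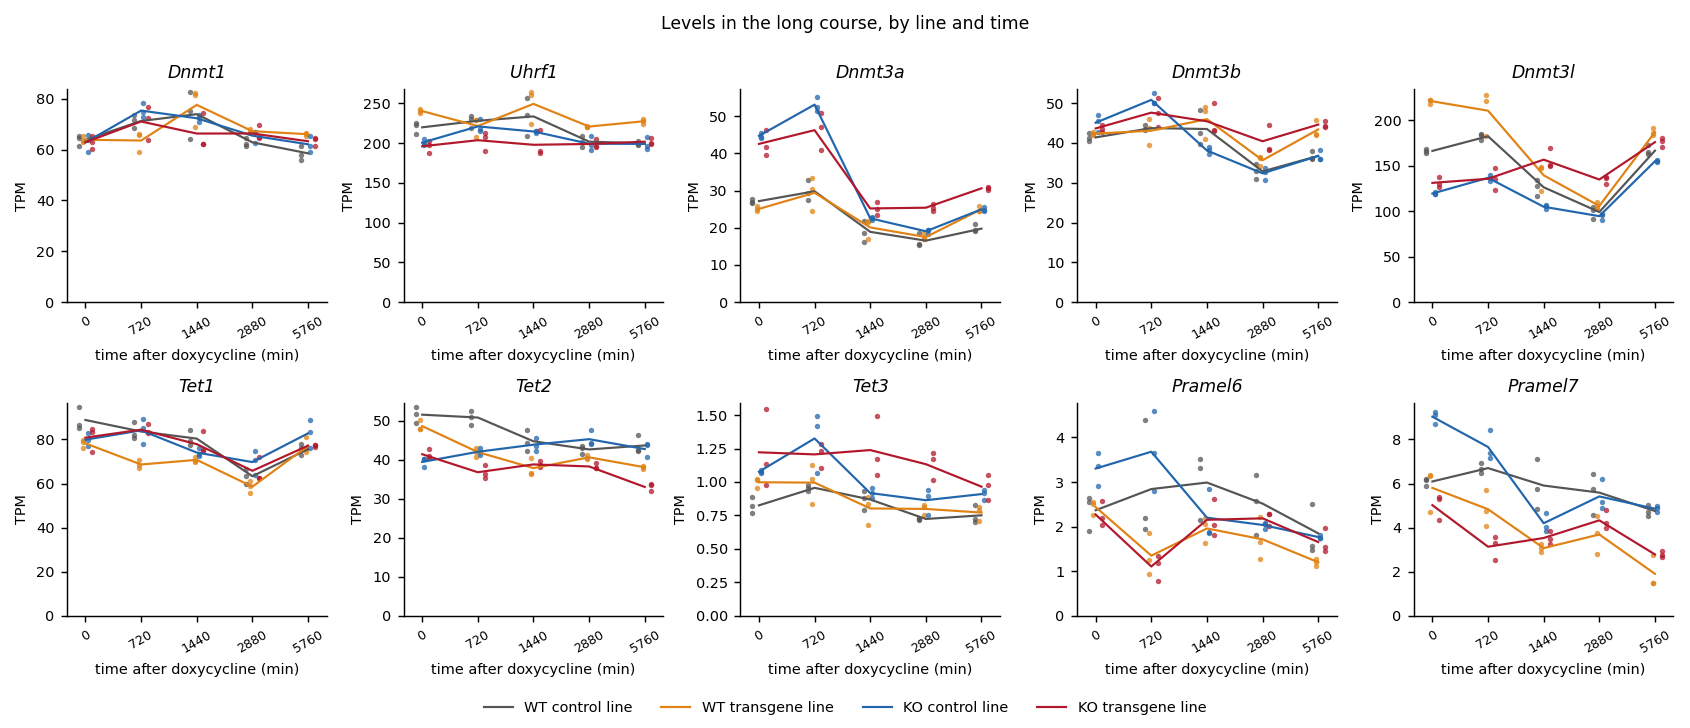
Levels of the 10 genes in the long course (y axis, TPM from 0; x axis, time after doxycycline in min, evenly spaced and not to scale). Points are libraries (n = 3 per line and time) and lines join the means. Dnmt3a fell in all 4 lines between 720 and 1440 min, and the KO transgene line (red) lay above the KO control (blue) for Dnmt3b and Dnmt3l at 1440 and 2880 min.

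Without doxycycline, the long-course KO control differed from the WT control in 8 of the 10 genes: Dnmt3a, Tet3, Pramel6, Pramel7 and Dnmt3b were higher, and Dnmt3l, Tet2 and Uhrf1 lower. The comparison asks how loss of Firre relates to the resting transcriptome. It called 35.1% of the 17565 genes tested (16.5% higher, 18.6% lower), in edgeR's quasi-likelihood test at an adjusted p under 0.05, the threshold used throughout. Dnmt3a was at 44.1, 44.5 and 45.5 TPM in the KO control and at 26.7, 26.9 and 27.8 TPM in the WT control. The groups lay far apart, with a log2 fold change of 0.68 ± 0.03 (SE, as for every fold change here; edgeR, adjusted p = 2.2e-28). Dnmt3l was at 119, 119 and 121 TPM against 164, 167 and 169 TPM. All KO libraries were lower, and the difference was -0.47 ± 0.03 (edgeR, adjusted p = 7.1e-21). Tet2 was at 38.1, 40.1 and 40.2 TPM against 49.5, 51.7 and 53.5 TPM. It too was lower in every KO library (-0.32 ± 0.03; edgeR, adjusted p = 8.1e-15).

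Both Pramel genes were higher in that comparison. Pramel7 was at 8.69, 9.12 and 9.26 TPM in the KO control and at 5.89, 6.18 and 6.22 TPM in the WT control, with no overlap (0.43 ± 0.10 on the log2 scale; edgeR, adjusted p = 0.00058). Pramel6 was at 2.91, 3.36 and 3.64 TPM against 1.91, 2.55 and 2.65 TPM, which gives 0.46 ± 0.17 (edgeR, adjusted p = 0.026). That Pramel6 call was lost without replicate 1, without replicate 3, with no filter on low counts and in TPM, with adjusted p up to 0.27. Tet3 was at 1.06, 1.07 and 1.09 TPM against 0.772, 0.819 and 0.886 TPM, a log2 fold change of 0.37 ± 0.09. Dnmt3b and Uhrf1 differed by a log2 fold change of only 0.15 ± 0.03 and -0.11 ± 0.03, and Dnmt1, the maintenance enzyme, and Tet1 did not pass (0.01 ± 0.03 and -0.07 ± 0.04).

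The short course gave another picture of the same 2 lines. At 0 min it called 1 of the 10 genes, against 7.51% of the 18009 genes tested. That gene was Dnmt3b, and it was lower in the KO control, at 43.5 and 49.2 TPM against 57.8 and 58.3 TPM. The log2 fold change was -0.26 ± 0.06 (edgeR, adjusted p = 0.0052), opposite in sign to the long course, and the call was lost without replicate 1 (adjusted p = 0.18). Averaged over the 12 times, 8 of the 10 genes passed, 2 higher and 6 lower, where 46.6% of all genes did (24.2% higher, 22.4% lower). Dnmt3b was lower in the KO control at 12 of 12 times without overlap, with a mean log2 fold change of -0.30 ± 0.02. Its 24 KO control libraries lay between 41.7 and 50.04 TPM (median 45.8), and its 24 WT control libraries between 50.4 and 63.1 TPM (median 57.7). Dnmt3a was higher, with a mean log2 fold change of 0.16 ± 0.02 that passed under each alternative run. Pramel6 was lower (-0.33 ± 0.05), as was Pramel7 (-0.11 ± 0.04), and the Pramel7 call was lost when either replicate was left out.

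Averaged over the 5 times of the long course, 5 of the 10 genes passed, where 52.2% of all genes did (23.6% higher, 28.6% lower). Dnmt3a (0.38 ± 0.02) and Tet3 (0.24 ± 0.04) were higher in the KO control, and Dnmt3l (-0.30 ± 0.01), Tet2 (-0.12 ± 0.01) and Uhrf1 (-0.11 ± 0.01) lower. Tet3 thus had opposite signs in the course means, since its short-course mean was -0.23 ± 0.04. The means cover different times. At 0 min, which both courses hold, Tet3 was positive in each (0.37 ± 0.09 long, and 0.17 ± 0.13 short, which did not pass). Tet2 was 0.10 ± 0.03 higher in the short-course mean, a call that vanished without replicate 1 (log2 fold change -0.02). Dnmt3a was the member whose 4 estimates were all positive, and Uhrf1 and Dnmt3l those whose 4 estimates were all negative. The courses were fitted apart, and the difference between them was not tested. The short-course mean of Dnmt3l was 0.005 without replicate 1, so its sign there rests on that replicate.

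**Figure D2:**
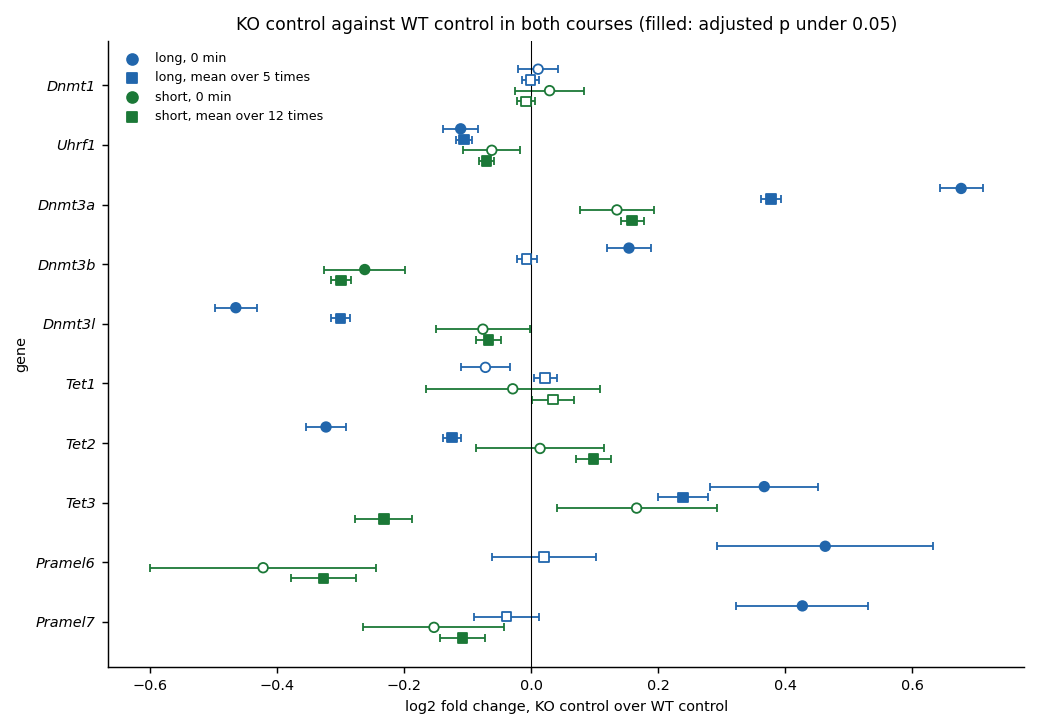
KO control over WT control (x axis, log2 fold change ± SE from edgeR) for the 10 genes (y axis) in the long course (blue; n = 3 per group and time) and the short course (green; n = 2). Circles are 0 min, squares are means over all times, and filled symbols passed an adjusted p under 0.05. Dnmt3b is at 0.15 in the long course and at -0.26 in the short course at 0 min.

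Before induction, each transgene line was set against its own control, to show which genes differed without doxycycline. In the KO background of the long course 3 of 10 genes passed (3.54% of all genes). Pramel7 was at 4.36, 5.30 and 5.401 TPM in the KO transgene line and at 8.69, 9.12 and 9.26 TPM in the KO control. The transgene line was lower in every library, at -0.74 ± 0.11 on the log2 scale (edgeR, adjusted p = 5.5e-07). Dnmt3a (-0.12 ± 0.03) and Dnmt3l (0.12 ± 0.03) passed as small differences that were each lost in at least 4 alternatives. In the short course none of the 10 passed in edgeR (0.161% of all genes did), none in DESeq2, and 3 had an unadjusted p under 0.05. There, Pramel7 differed by -0.44 ± 0.12 (edgeR, adjusted p = 0.094). Over the whole short course, the KO transgene line had less Pramel7 than the KO control at 12 of 12 times without overlap, with medians of 6.45 and 10.2 TPM over 24 libraries each.

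In the WT background 3 of 10 genes passed in the long course at 0 min (13.2% of all genes), and Dnmt3l led. It was at 218, 222 and 223 TPM in the WT transgene line and at 164, 167 and 169 TPM in the WT control, which amounts to 0.41 ± 0.03 (edgeR, adjusted p = 1.6e-17). In the short course at 0 min it was the single gene of the 10 to pass (2.93% of all genes), at 195 and 203 TPM against 147 and 152 TPM, a log2 fold change of 0.47 ± 0.07. Without replicate 2 its adjusted p there was 0.073. Dnmt3l stayed apart at 12 of 12 short-course times, at 189 to 217 TPM in the WT transgene line and 146 to 161 TPM in the WT control. Uhrf1 (0.13 ± 0.03) and Tet1 (-0.13 ± 0.04) were the other 2 genes in the long course. The responses below are changes from 0 min and share their 0 min libraries with these comparisons.

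In both control lines of the long course, Dnmt3a and Dnmt3b were lower at 48 h than at 0 min, Dnmt3a by more. Dnmt3b changed by -0.51 ± 0.04 in the KO control. In the WT control it changed by -0.22 ± 0.04 at 48 h and did not pass at 24 or 96 h. There, Dnmt3l fell further at 48 h than Dnmt3a. Between the WT control times 8 of the 10 genes changed (1 higher, 7 lower at the time of their largest change), and between the KO control times 9 (3 higher, 6 lower). These counts stand against 54.8% of all genes in the WT control (28.7% higher, 26.1% lower) and 59.6% in the KO control (29.8% in each direction). Dnmt3a in the KO control was at 51.4, 52.6 and 55.3 TPM at 12 h, at 22.2, 22.5 and 22.9 TPM at 24 h and at 18.4, 19.3 and 19.5 TPM at 48 h. Its fall from 0 min was largest at 48 h, a log2 fold change of -1.11 ± 0.04. In the WT control the fall at 48 h was -0.55 ± 0.04, from 26.7 to 27.8 TPM at 0 min to 15.4 to 18.6 TPM. Dnmt3l in the WT control was at 91.3, 101 and 105 TPM at 48 h (-0.64 ± 0.03 from 0 min) and was back at 163, 165 and 172 TPM at 96 h. In the KO control it ended above its start, at 154, 155 and 156.1 TPM (0.43 ± 0.03). Tet2 rose in the KO control (0.30 ± 0.03 at 48 h) and fell in the WT control (-0.17 ± 0.03 at 96 h). Pramel7 in the KO control fell from 8.69 to 9.26 TPM at 0 min to 3.87, 4.04 and 4.68 TPM at 24 h (-0.84 ± 0.11), and Pramel6 fell with it (-0.75 ± 0.18). The small Uhrf1 and Tet1 changes in the KO control (-0.07 ± 0.03 and 0.14 ± 0.04) had the opposite sign in TPM, and the Pramel7 change in the WT control (-0.18 ± 0.11) was positive at its largest without replicate 1 or 2.

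Much of this change lay between 12 and 24 h. Over that step 8 of the 10 genes passed in the KO control, 1 higher and 7 lower (38.5% of all genes, 19.5% higher and 19.0% lower), and 6 in the WT control (30.5%). In the KO transgene line 5 passed, 4 of them higher (39.4%, with 20.1% higher and 19.3% lower), and in the WT transgene line 8 (41.8%). Dnmt3b moved by -0.34 ± 0.04 in the KO control and by 0.07 ± 0.03 in the KO transgene line, where it did not pass. Dnmt3l moved by -0.30 ± 0.03 in the KO control and by 0.35 ± 0.03 in the KO transgene line. Pramel6 moved by -0.76 ± 0.18 and 0.62 ± 0.20, and Tet3 by -0.46 ± 0.09 and 0.18 ± 0.08 (the last not passing). Dnmt3a fell in both KO lines, by -0.91 ± 0.04 and -0.76 ± 0.04.

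The response to the transgene was computed as a difference of changes: how far a transgene line moved after 0 min, less how far its control moved. In the KO background (rescue) it passed for 7 of the 10 genes in the F test over the long course, against 11.5% of all genes. At their largest response 5 were higher, where 5.56% of all genes were, and 2 were lower, where 5.97% were. With each gene taken at its own time of largest response, the median was 0.24 over the 10 genes and -0.05 over all genes tested. At 12, 24, 48 and 96 h the median over the 10 genes was -0.06, 0.34, 0.41 and 0.04. Over all genes tested it was 0, 0, -0.01 and -0.01 at these times. Dnmt3a, Dnmt3b, Dnmt3l, Tet3 and Pramel7 had positive responses at their largest and Tet2 a negative one. Both Pramel genes were negative at 12 h and positive at 24 and 48 h, and Pramel6 was largest at 12 h. Rescue names the background and does not mean a return to the WT level. Dnmt3a, Dnmt3b, Tet2, Tet3 and Pramel7 had largest responses of the same sign as the long-course KO against WT control difference at 0 min. Those of Dnmt3l and Pramel6 had the opposite sign. The response and that difference share the KO control libraries of 0 min. By time, 1 gene passed at 12 h, 5 at 24 h, 6 at 48 h and 3 at 96 h, against 0.854%, 6.46%, 4.83% and 5.35% of all genes.

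The 3 members of the de novo group responded together at 24 and 48 h. At 48 h Dnmt3b was at 38.3, 38.5 and 44.4 TPM in the KO transgene line and at 30.8, 32.6 and 33.7 TPM in the KO control. The lines did not overlap, and they had overlapped at 0 min, with 42.8 to 44.6 and 42.8 to 47.0 TPM. The Dnmt3b change from 0 min was -0.51 ± 0.04 in the control and -0.09 ± 0.04 in the transgene line, which gives the response of 0.42 ± 0.05 (edgeR, adjusted p over all times = 5.8e-15). Dnmt3a at 48 h was at 24.4, 25.3 and 26.5 TPM in the transgene line and at 18.4, 19.3 and 19.5 TPM in the control, again without overlap. Its change was -0.65 ± 0.04 against -1.11 ± 0.04, a response of 0.47 ± 0.05 (edgeR, adjusted p over all times = 3.0e-12) that was positive in 12 of 12 transgene libraries after 0 min. Dnmt3l at 24 h was at 150, 150 and 170 TPM in the transgene line and at 103, 106 and 107 TPM in the control. It rose from 0 min in the first (0.29 ± 0.03) and fell in the second (-0.26 ± 0.03), for a response of 0.55 ± 0.05. By 96 h the Dnmt3l response was 0.06 ± 0.05 and did not pass, whereas those of Dnmt3a (0.41 ± 0.05) and Dnmt3b (0.35 ± 0.05) did. The 3 calls over all times held in each of the 9 alternatives run. At single times in TPM, Dnmt3a and Dnmt3b did not pass at 24 and 96 h (adjusted p up to 0.37).

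Tet2 and Tet3 had responses of opposite sign. Tet2 at 96 h was at 32.0, 33.5 and 33.7 TPM in the KO transgene line and at 40.7, 43.7 and 43.9 TPM in the KO control. Every transgene library was lower, whereas at 0 min every transgene library had been slightly higher, at 40.6 to 42.9 against 38.1 to 40.2 TPM. The Tet2 response was negative at each of the 4 times, from -0.23 ± 0.04 at 24 h to -0.37 ± 0.04 at 96 h, and all 4 passed. It was also the single gene of the 10 that passed at 12 h, where its call was lost without replicate 1 (adjusted p = 0.089). Tet3 at 24 h was at 1.05, 1.17 and 1.49 TPM in the transgene line and at 0.879, 0.918 and 0.955 TPM in the control. The response was 0.58 ± 0.12 at 24 h and 0.03 ± 0.12 at 96 h, and in TPM the F test did not pass (adjusted p = 0.26) and the largest response was negative (-0.205). Tet1, the most abundant dioxygenase, had responses between -0.07 ± 0.06 and -0.01 ± 0.06, none of which passed.

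The Pramel genes had a response that changed sign with time. At 12 h Pramel6 was at 0.792, 1.19 and 1.34 TPM in the KO transgene line and at 2.80, 3.66 and 4.58 TPM in the KO control. The transgene line was lower in every library, after 2.05 to 2.58 against 2.91 to 3.64 TPM at 0 min. The Pramel6 response was -0.75 ± 0.26 at 12 h and 0.63 ± 0.26 at 24 h. Neither passed alone (edgeR, adjusted p = 0.24 and 0.15), but the F test over the 4 times did (edgeR, adjusted p = 0.00065), and it was lost without replicate 2 (adjusted p = 0.099). Pramel7 moved alike, with -0.56 ± 0.17 at 12 h, 0.38 ± 0.17 at 24 h, 0.58 ± 0.16 at 48 h and 0.00 ± 0.20 at 96 h. Only the 48 h value passed alone, and it was lost without replicate 2, without replicate 3 and in TPM. Without replicate 2 the largest response was the negative one, at -0.84. In levels Pramel7 was never above its control in the rescue: at 48 h it was at 3.99, 4.22 and 4.78 TPM against 4.89, 5.16 and 6.199 TPM, and it was lower without overlap at 5 of 5 times. The positive response at 48 h therefore compares a change of -0.06 ± 0.12 in the transgene line, from a lower start, with one of -0.64 ± 0.11 in the control. Dnmt1 and Uhrf1, the maintenance pair and the latter the reported target of PRAMEL7, had responses between -0.02 ± 0.04 and 0.06 ± 0.04 at all times, none of which passed.

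**Figure D3:**
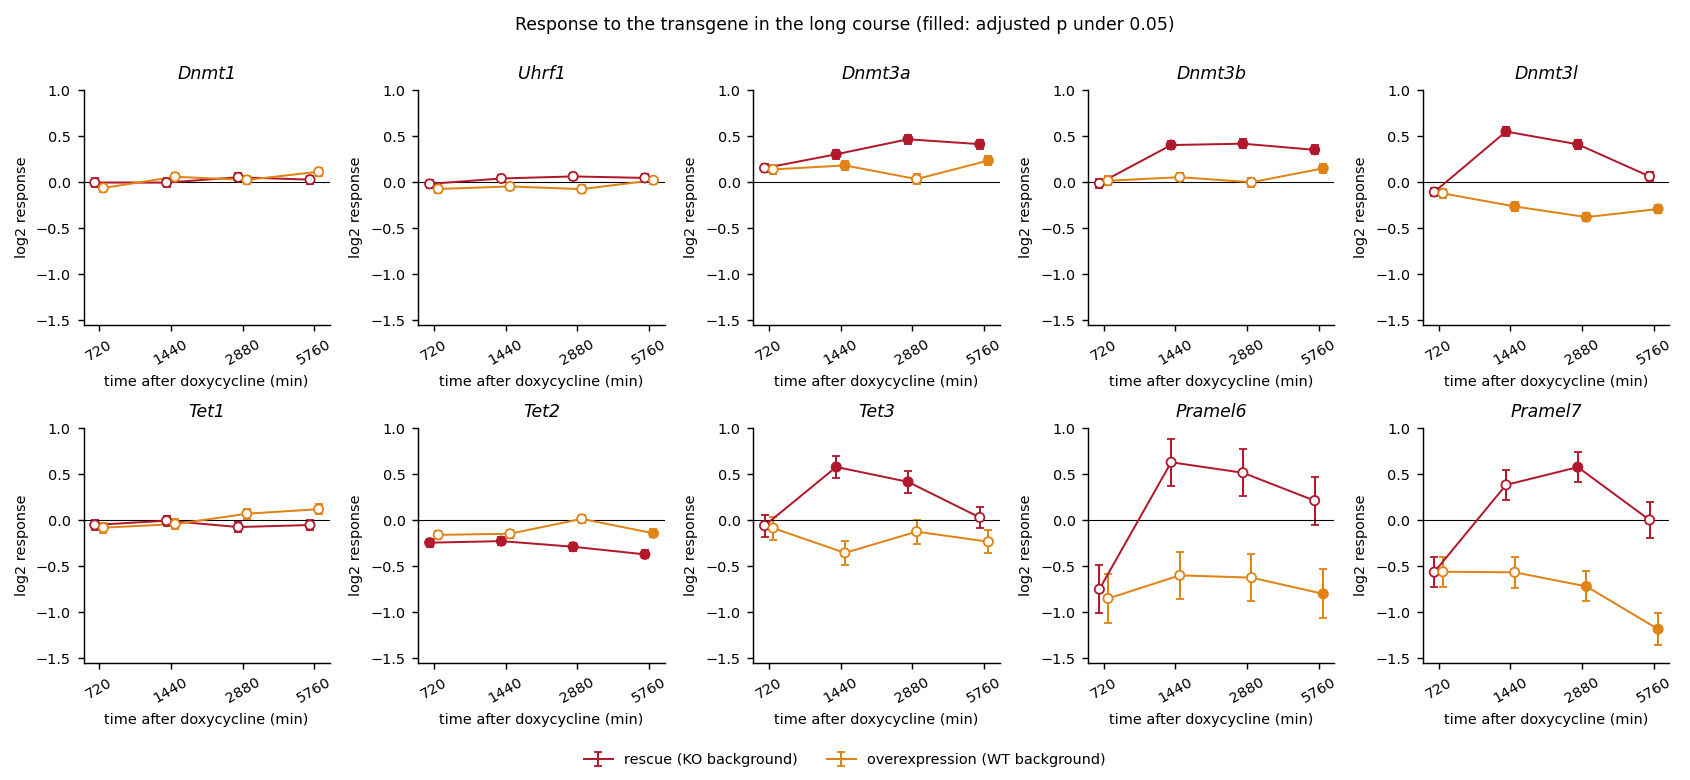
Response to the Firre transgene in the long course (y axis, log2 change of the transgene line less the change of its control, ± SE from edgeR; x axis, time after doxycycline in min, evenly spaced and not to scale; n = 3 per line and time). Filled points passed an adjusted p under 0.05 at that time. Dnmt3a, Dnmt3b and Dnmt3l are positive in the KO background (red) at 1440 and 2880 min, and the Pramel7 response reaches -1.19 in the WT background (orange) at 5760 min.

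In the WT background (overexpression) 6 of the 10 genes passed over the long course, 3 higher and 3 lower at their largest response, against 9.79% of all genes (4.16% higher, 5.63% lower). The largest of these was Pramel7. At 96 h it was between 1.47 and 2.75 TPM in the WT transgene line and at 4.52, 4.71 and 5.03 TPM in the WT control. The 3 transgene libraries were lower, where at 0 min the lines had overlapped (4.71 to 6.38 and 5.89 to 6.22 TPM). The long-course response was negative at all 4 times and reached -1.19 ± 0.17 at 96 h (edgeR, adjusted p over all times = 1.3e-05), a call that held in all 10 alternatives. In the short course the WT transgene line had less Pramel7 than the WT control at 9 of 12 times without overlap. The medians there were 8.98 and 11.3 TPM over 24 libraries each. At 0 min of that course the log2 difference was -0.23 ± 0.11 and did not pass (edgeR, adjusted p = 0.29). Pramel6 had negative long-course responses from -0.60 ± 0.26 to -0.85 ± 0.27, and its F test did not pass (edgeR, adjusted p = 0.093). The 96 h value passed alone (edgeR, adjusted p = 0.046) and was lost in 7 of 9 alternatives. At 12 h it was at 0.951, 1.255 and 1.85 TPM against 1.95, 2.19 and 4.39 TPM, without overlap.

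Dnmt3l fell further in the WT transgene line than in its control. At 48 h it was at 104, 104 and 110 TPM against 91.3, 101 and 105 TPM, so that the levels overlapped, but from a start of 218 to 223 against 164 to 169 TPM. The change was -1.01 ± 0.03 against -0.64 ± 0.03 and the response -0.38 ± 0.05 (edgeR, adjusted p over all times = 4.1e-09). Dnmt3a had a positive response of 0.23 ± 0.05 at 96 h, at 24.6, 24.6 and 25.8 TPM against 19.08, 19.3 and 20.9 TPM. Dnmt3b was at 42.0, 42.4 and 45.8 TPM against 35.9, 36.3 and 37.9 TPM at that time, with a response of 0.15 ± 0.05 that passed at 96 h and not over all times (edgeR, adjusted p = 0.097). Tet2 (-0.16 ± 0.04), Dnmt1 (0.11 ± 0.04) and Tet1 (0.12 ± 0.06) passed as small responses. That of Tet1 ran from -0.117 to 0.203 when 1 replicate was left out, so its direction was not stable. Without replicate 2 the count fell from 6 to 2 genes, Dnmt3l and Pramel7, and in TPM to 1, Pramel7.
By time, none of the 10 genes passed at 12 h in edgeR (0.581% of all genes did), where 5 had an unadjusted p under 0.05 and 1 passed in DESeq2. At 24 h 2 genes passed, at 48 h 2 and at 96 h 6, against 1.85%, 2.56% and 8.23% of all genes. The 24 h count was 1 without the WT control library of replicate 3 at that time, which an earlier analysis had found to stand apart.

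The responses in the 2 backgrounds were compared directly. Rescue minus overexpression passed for 7 of the 10 genes, where 5.32% of all genes passed, and 6 of the 7 differences were positive at their largest (2.68% of all genes were, and 2.64% were negative). With each gene taken at its own time of largest difference, the median was 0.43 over the 10 genes and -0.04 over all genes tested. Dnmt3l differed by 0.81 ± 0.07 at 24 h (edgeR, adjusted p over all times = 1.0e-20), with a response of 0.55 in the KO and -0.26 in the WT background. Pramel7 differed by 1.30 ± 0.23 at 48 h (edgeR, adjusted p = 3.1e-06), with responses of 0.58 and -0.72. Both calls held in each of the 9 alternatives. Tet3 differed by 0.93 ± 0.17, Dnmt3a by 0.43 ± 0.07, Dnmt3b by 0.42 ± 0.07 and Tet2 by -0.30 ± 0.06. Pramel6 differed by 1.23 ± 0.36, a call lost when any 1 replicate was left out, with no filter and in TPM (adjusted p up to 0.39). Without replicate 2, 3 of the 7 genes passed, and in TPM also 3. Dnmt1, Uhrf1 and Tet1 did not pass.

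Within 330 min of doxycycline, no response of the 10 genes passed in the planned test, and up to 4 passed once replicate offsets within lines were modelled. In the short course the count was 0 for rescue, overexpression and their difference in edgeR, where 1.82%, 0.7% and 0.0167% of all genes passed. An unadjusted p under 0.05 was found for 6, 1 and 0 of the genes, and DESeq2 called 1, 1 and 0. With a block for the replicate within each line, chosen after seeing the data, 4 genes passed in the rescue (4.74% of all genes) and 1 in overexpression (1.44%). The 4 were Tet2 (-0.14; edgeR, adjusted p = 0.011), Dnmt3l (-0.12), Dnmt3a (-0.04) and Uhrf1 (-0.04), and the 1 was Pramel7 (-0.13; edgeR, adjusted p = 0.031). The largest mean responses were those of Pramel7, -0.25 ± 0.12 in the KO and -0.13 ± 0.12 in the WT background. In simulated rescue data of the short course, 6% of genes changed 1.5-fold and 70% of genes changed 2-fold were recovered. The simulation gave every gene the same spread and a constant shift at all times after 0 min. These shares hold for those settings and do not give the smallest response detectable in the 10 genes.

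The WT control of the short course changed most in 2 low members. Tet3 in the WT control lay between 0.766 and 1.19 TPM in the 12 libraries of 0 to 150 min. It lay between 1.24 and 1.64 TPM in the 12 libraries of 180 to 330 min. The cuts in time used here were not part of a planned test, so a gap between ranges is description only. The Tet3 change over all times passed in edgeR (adjusted p = 2.9e-06), 1 of 3 members to do so against 21.8% of all genes. The WT transgene line moved alike, from 1.09 to 1.45 TPM before 180 min to 1.47 to 1.85 TPM after. In the KO control Tet3 stayed between 0.775 and 1.26 TPM, and its change did not pass (edgeR, adjusted p = 0.14). Pramel6 in the WT control was at 4.25 to 6.95 TPM in the first 4 times and at 2.99 to 4.14 TPM in the last 5. These ranges leave out the times between. The Pramel6 change over all times passed (edgeR, adjusted p = 2.6e-08). In the KO control Pramel6 was 1 of 2 members that passed (13.3% of all genes), a call lost without either replicate.

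**Figure D4:**
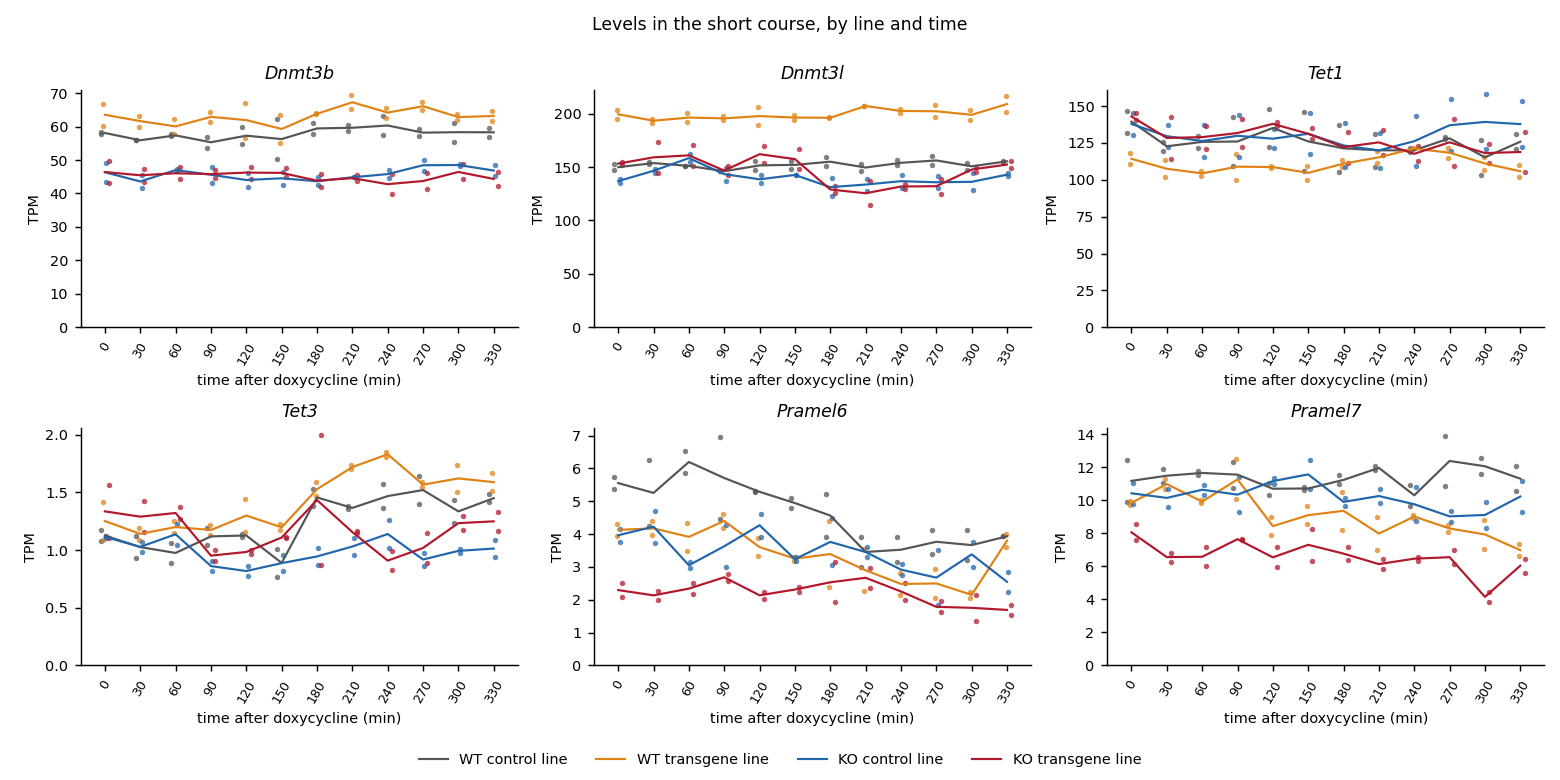
Levels of 6 of the genes in the short course (y axis, TPM from 0; x axis, time after doxycycline in min). Points are libraries (n = 2 per line and time) and lines join the means. Dnmt3b is lower in both KO lines than in both WT lines and Dnmt3l highest in the WT transgene line at every time, Tet3 is higher from 180 min on in both WT lines, and Pramel7 is lowest in the KO transgene line.

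Replicates of the short course differed in a way that touched several members, Tet1 among them. In the KO control Tet1 was higher in replicate 1 than in replicate 2 at 12 of 12 times (median ratio 1.24), and in the KO transgene line also at 12 of 12 (1.14). In the WT control it was lower in replicate 1 at 10 of 12 times. The KO against WT mean of Tet1 was accordingly 0.03 ± 0.03 with both replicates, -0.18 without replicate 1 and 0.24 without replicate 2. Dnmt3b and Tet2 were also higher in replicate 1 at 12 of 12 KO control times, Dnmt1 at 11, and Uhrf1 and Tet3 at 10. Pramel6 and Pramel7 were so at only 7 and 5 of these times. Dnmt3l ran the other way, higher in replicate 1 at 1 of 12 KO control and 2 of 12 KO transgene times. In the WT control, replicate 1 was higher at 2 of 12 times for Dnmt1, Uhrf1 and Pramel7 and at 1 for Pramel6, but at 6 for Dnmt3l and Tet3. What the replicates shared was not given in the labels. Modelling the replicate within each line took the short WT control change from 3 to 5 genes.

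Among partners of the 10 genes, lists of known function were counted by their response in the long course. A positive response can be a smaller fall than in the control, so higher and lower below refer to the difference of changes. Over all genes, the rescue response was higher in 5.56% and lower in 5.97%, and the overexpression response in 4.16% and 5.63%. Of 9 partners of maintenance methylation, 3 had a higher and 0 a lower rescue response. Among them, Dppa3, which encodes the UHRF1-binding protein Stella, had a response of 0.79 ± 0.12 at 96 h, when its change in the KO control was -2.58 ± 0.08, so it fell less in the transgene line. The Dppa3 response also passed in overexpression (0.73 ± 0.13), and its level exceeded that of the WT control by 1.52 ± 0.08 in untreated long-course KO control cells. Of 10 transcription factors that act on Dnmt3 or Pramel genes, 1 had a higher and 3 a lower rescue response. Klf4, a factor of the naive state, had a response of -0.43 ± 0.05 at 48 h, when it rose by 0.87 ± 0.04 in the KO control, so it rose less in the transgene line. Nanog had a response of -0.15 ± 0.04. In overexpression Klf4 had a positive response (0.26 ± 0.05) and was the single gene of the list to pass. Of 15 demethylation and repair partners, 3 had a higher and 2 a lower rescue response, among them Gadd45g (1.21 ± 0.285) and Gadd45b (-0.55 ± 0.08). Of 8 genes of Cul2 ubiquitin ligases, 0 had a higher and 1 a lower response, Zyg11b (-0.205 ± 0.051), and in overexpression 0 and 2. Of 10 genes of the methyl donor cycle, 4 had a higher and 1 a lower rescue response, and none passed in overexpression.

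Of 15 germline genes that promoter methylation is known to silence, 9 had a higher and 0 a lower rescue response, where 5.56% and 5.97% of all genes did. The median of the largest responses, each at its own time, was 0.58 over the 15 genes against -0.05 over all genes. In both KO lines their sum was lower at 48 h than at 0 min, by less in the transgene line. The summed level went from 475.3 to 476.8 TPM at 0 min to 387.4 to 403.4 TPM at 48 h in the transgene line, and from 507.0 to 510.9 TPM to 288.5 to 296.3 TPM in the control. The response of Dazl, an RNA-binding protein of germ cells, was 1.13 ± 0.06, and that of the homeobox gene Rhox5 was 1.27 ± 0.09. In overexpression 6 had a higher and 1 a lower response (4.16% and 5.63% of all genes). In the untreated long-course KO control 9 were higher and 0 lower than in the WT control (16.5% and 18.6% of all genes). The germline sum there was 507.0 to 510.9 TPM, against 315.2 to 334.3 TPM in the WT control. Over all short-course libraries of the 4 lines it lay between 332 and 406.4 TPM, so a gap of that size was absent there. Of 8 trophoblast markers, 4 had a higher and 2 a lower rescue response. Their sum went from 32.3 to 34.1 TPM at 0 min to 117 to 119 TPM at 48 h in the transgene line. In the control it went from 30.8 to 32.8 TPM to 64.2 to 67.7 TPM. Krt8 and Krt18 had the highest maxima of the list (47.3 and 48.8 TPM), against 23.1 TPM for Tfap2c and 6.74 TPM for Eomes. Cdx2, Gata3 and Hand1 stayed at or under 1.72, 2.56 and 0.715 TPM in every library. Krt8 and Krt18 therefore made up most of the 48 h sum in the transgene line. The Krt8 and Krt18 medians over all libraries (7.83 and 7.55 TPM) were below that of Tfap2c (13.4 TPM). The defining trophoblast gene Elf5 stayed at or under 0.334 TPM in every library. Of 8 mESC markers 1 had a higher and 4 a lower rescue response, and of 8 genes of the 2-cell-like state 0 and 4. The part of these markers in the Dnmt3 and Pramel responses was not tested.

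Across the 20 line and time means of the long course, Pramel6 and Pramel7 had the highest correlation of any pair of members (Pearson r = 0.85), and each was the gene most like the other among all genes compared. Dnmt3a was next with Tet3 (r = 0.72) and with Dnmt3b (r = 0.67). Dnmt3b and Tet2 had the lowest (r = -0.69). The genes most like Dnmt3a were Sox4 (r = 0.97), Herc6 (0.96) and Acsl4 (0.96), and those most like Dnmt3l were Akr1b8 (0.94), Spry4 (0.94) and Kifc3 (0.91). For Dnmt3b they were Ehmt1 (0.862), Itga1 (0.825) and Gle1 (0.821), and for Tet2 Qars, Stx3 and Agfg1 (0.90, 0.90 and 0.89). The 20 points share lines, culture and depth, so these values describe likeness and carry no test.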

How the data were processed

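Poly(A) RNA of 156 mESC libraries was sequenced with an unstranded kit, so reads of overlapping or antisense genes cannot be told apart. Per the file headers, the authors deposited expected counts and TPM per gene. Salmon 1.5.2 and the mm10 build are named in the submitters' processing notes. The expected counts were rounded to whole numbers. Both courses were fitted apart in edgeR 4.0.16 (R 4.3.3) with TMM scaling, filterByExpr (minimum count 10, minimum total 15) and quasi-likelihood F tests, adjusted by Benjamini-Hochberg over 17565 genes (long) and 18009 genes (short). Each line and time of the long course was given its own coefficient. Short-course changes were tested with a natural spline of 3 df per line, and their printed sizes are means over the 11 later times. The SE is the absolute log2 fold change divided by the root of F. Levels are TPM as deposited.

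The genes and lists were chosen with earlier results of these data known. The text names all 10 genes, Firre, at most 3 passing genes per list by smallest adjusted p, marker genes of other cell types, and the 3 genes most correlated with a member over 20 group means. No 2 replicates agreed within sampling noise (smallest chi-square per degree of freedom 1.75). Simulated data of the long rescue had the same spread in every gene. There, 48% of genes changed 1.5-fold and 100% of genes changed 2-fold were recovered. Alternatives used DESeq2 1.42.0, RLE scaling, no filter, a replicate block, only the lines compared, limma 3.58.1 on log2(TPM + 0.5), leaving out replicates, and, chosen after seeing the data, a block within each line. Replicate numbers did not pair a control library with a transgene library of the same time (0 of 30 and 0 of 48 pairs over a correlation of 0.1). In the short course the 2 pairs of a time give the same value by construction. The check does not look across times, where replicates of the short course did differ.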

Additional observations from a re-analysis of the deposited data

Results flagged for a closer look

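For 7 of the 10 genes, the long-course response to the transgene differed between the KO and WT backgrounds in edgeR's test of the difference itself. Rescue minus overexpression, at its largest, was 0.433 for Dnmt3a, 0.419 for Dnmt3b and 0.814 for Dnmt3l on the log2 scale. It was -0.303 for Tet2 and 0.934 for Tet3. It was 1.229 for Pramel6 and 1.296 for Pramel7. The largest differences were at 24 h for Dnmt3l, Tet3 and Pramel6 and at 48 h for the other 4 genes.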

How the results depend on the processing

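Of 123 called values of the 10 genes, 63 kept direction and call in every alternative run. Over 1129 alternatives of these called values, 986 kept both, 131 lost the call and 12 changed sign. Of 177 values not called, 59 of 1615 alternatives gained a call and 3 turned with one. Low counts limit Pramel6, Pramel7 and Tet3, 2 replicates limit the short course, and the cause of each change below was not tested beyond fewer samples in those that leave out a replicate.

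Replicate numbers did not pair control with transgene libraries of the same time, a check that does not look across times. With the replicate block the long rescue still called 7 of the genes (2212 of all genes against 2024). The block took short-course WT transgene against WT control at 0 min from 1 gene to 2, short overexpression from 0 to 1 and overexpression at 12 h from 0 to 1. A block within each line took the short WT control change from 3 to 5 genes, short rescue from 0 to 4 and short overexpression from 0 to 1.

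In TPM the number of the 10 genes called went from 8 to 5 for KO against WT control at 0 min, from 3 to 1 for each transgene line against its control at 0 min, from 2 to 0 for the short KO control change, from 6 to 1 for overexpression and from 7 to 3 for the difference. By time it went from 5 to 2 (rescue, 24 h), 3 to 1 (rescue, 96 h), 2 to 0 (overexpression, 24 and 48 h) and 6 to 2 (96 h), and for the step from 12 to 24 h from 6 to 3 (WT control) and 5 to 3 (KO transgene). With no filter, KO transgene against KO control at 0 min went from 3 to 1 (long) and 0 to 1 (short), short WT transgene against WT control from 1 to 3, short rescue from 0 to 2, short overexpression and the short difference from 0 to 1, and overexpression at 24 h from 2 to 1. Only the lines compared gave 2 for short WT transgene against WT control, 1 for the short KO control change and 1 for short overexpression. DESeq2 gave 1 for short rescue, short overexpression and overexpression at 12 h, where RLE scaling also gave 1. With 1 coefficient per line and time the short KO control change called 0. Without WT control replicate 3 at 24 h, overexpression at 24 h called 1.

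Leaving out 1 replicate gave 7 genes for KO against WT control at 0 min (long), 0 to 1 (short), 5 to 6 for the mean of 5 times and 7 to 9 for that of 12. KO transgene against KO control gave 1 to 2, and WT transgene against WT control 2 to 3 (long) and 0 to 1 (short). Changes over time gave 7 to 8 (WT control) and 8 to 10 (KO control) in the long and 3 to 4 and 0 to 1 in the short course. Rescue gave 6 to 7, overexpression 2 to 6 and their difference 3 to 7. Rescue by time gave 0 to 1, 5, 4 to 6 and 3, and overexpression at 24, 48 and 96 h 0 to 2, 1 to 2 and 3 to 5. The 12 to 24 h step gave 4 to 5 (WT control), 7 (KO control), 5 to 7 (WT transgene) and 5 to 6 (KO transgene).

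Signs turned for some small values. Leaving out 1 replicate gave a short mean of KO against WT control of -0.059 to 0.044 for Dnmt1, -0.142 to 0.005 for Dnmt3l, -0.175 to 0.236 for Tet1 and -0.020 to 0.212 for Tet2. It gave a WT control change of -0.219 to 0.274 for Pramel7 (long; 0.223 without replicate 1) and -0.070 to 0.026 for Dnmt3a (short; 0.016 in TPM), a rescue of -0.837 to 0.770 for Pramel7, and an overexpression response of -0.117 to 0.203 for Tet1. In TPM the KO control change turned for Uhrf1 (0.139) and Tet1 (-0.197), the rescue of Tet3 (-0.205) and the KO transgene step of Uhrf1 (-0.043). With a block within each line the short KO control change in Pramel7 was 0.002.

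Over all genes, the count called across alternatives ran from 738 to 2212 for rescue (2024 as reported), 297 to 2095 for overexpression (1720) and 233 to 1398 for the difference (934). In the short course it ran from 52 to 1131 (328), 46 to 799 (126) and 1 to 564 (3).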

Other observations

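Genes of the 2-cell-like state, which a small share of mESCs is known to enter, were lower in the untreated long-course KO control for 8 of 8 genes, where 18.6% of all genes were lower, with a median log2 fold change of -0.92. In the rescue 0 of the 8 had a higher and 4 a lower response (5.56% and 5.97% of all genes), and in overexpression 1 and 1 (4.16% and 5.63%). Several Zscan4 and Tcstv genes are near-identical copies, so their counts are uncertain. Of the 5 other Pramel genes that passed the filter, 0 had a higher and 2 a lower rescue response, and in overexpression 1 and 1. Of 10 readers of methylated or unmethylated CpG, 0 had a higher and 2 a lower rescue response. In the untreated long-course KO control 0 were higher and 4 lower, where 16.5% and 18.6% of all genes were. Of 10 genes for imprint and repeat methylation, 1 had a higher and 2 a lower rescue response, and in overexpression 1 and 4.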
